A study of Mus musculus with 2 samples.

Results

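Cholesterol synthesis was examined through 8 genes, the enzymes Hmgcs1, Idi1, Fdft1, Sqle, Lss and Cyp51 and the regulators Srebf2 and Insig1, out of 19937 genes with a value. The genes were set by name, and each was read from a probe set annotated with its symbol alone, taking the probe set with the highest mean of both arrays where a gene had several. All 8 had a value. TR1 cells, the IL-10-producing CD4 T cells also called type 1 regulatory T cells, were isolated from mouse small intestine, and their RNA was measured on 1 Affymetrix array per genotype, 2 in all. The impaired array holds RNA from mice with the CD4-DNIL-10R transgene, a dominant-negative IL-10 receptor expressed under control of Cd4, and the wildtype array holds RNA from mice labelled wildtype for IL10RA. All mice were given 2 intraperitoneal doses of anti-CD3 antibody (clone 2C11, 15 μg) on alternate days and were killed 4 or 48 hours after the last dose. The labels leave unstated which of these times each array represents, how many mice were pooled, their age and how the cells were sorted.

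Cells build cholesterol from acetyl-CoA through mevalonate, isoprenoids, squalene and lanosterol. The supply is kept in balance by SREBP-2, the product of Srebf2, a transcription factor held in the endoplasmic reticulum as a precursor. When membrane sterol is plentiful, INSIG proteins retain the complex of SREBP and its escort SCAP there. When sterol is scarce, the complex moves to the Golgi, where proteases release the active factor, which then switches on the enzymes of the pathway and Insig1 itself. Activated T cells use this programme to make membrane for growth, and enterocytes of the small intestine both absorb and synthesise sterols. SREBP activity is controlled mainly by this cleavage, which an expression array does not measure.

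The 8 genes were close on both arrays, and none was 1.5-fold apart. The median of their log2 differences (impaired minus wildtype) was 0.02, against 0.00 over the 11124 genes whose brighter array reached the floor of 6.91, the level of the median probe set. All 8 reached that floor. Of the 8, 4 lay above 0 and 4 below, and 50.2% of all 11124 genes lay above 0 and 49.5% below. At least 1.5-fold apart were 0 of the 8, against 7.39% of all genes, and at least 2-fold apart were 0 of the 8, against 1.65%. At these shares 0 of 8 says little, and the same holds for a count of 0 in the short gene lists below. All 8 differences lay inside the range that held the middle 95% of all genes, -0.51 to 0.85, as nearly all genes do by definition. With 1 array per genotype no difference had a replicate error beside it, and no test was run.

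In the enzymes that lead to squalene, the differences were small. Hmgcs1, the synthase that makes HMG-CoA at the entry of the pathway, had a log2 RMA level of 9.74 on the impaired array, against 9.69 on the wildtype array. Its difference was 0.05, and 84.7% of all genes had a larger absolute difference. Idi1, the isomerase of the activated isoprene units, had 9.16 on the impaired array and 9.20 on the wildtype array (difference -0.04). A second probe set of Idi1, annotated with the same number of transcript accessions (4), went the other way, at 9.25 on the impaired and 9.04 on the wildtype array (difference 0.20), so the sign for this gene depended on the probe set. Fdft1, squalene synthase, was the lowest of the 8, at 10.69 on the impaired array and 10.88 on the wildtype array. Its difference was -0.19, a 1.14-fold dimmer signal on the impaired array, and 46.1% of all genes differed by more. The second Fdft1 probe set gave nearly the same difference (-0.17), at 10.34 on the impaired and 10.51 on the wildtype array.

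From squalene onward, 1 enzyme stood out from its neighbours. Sqle, squalene epoxidase, which introduces the oxygen that sterol synthesis needs, was at 8.72 on the impaired array and 8.73 on the wildtype array (difference -0.01, which centring on the median of all probe sets turned to 0.003). Lss, lanosterol synthase, which closes the sterol rings, was at 8.51 on the impaired array and 8.02 on the wildtype array. This was the largest difference of the 8, 0.48 or 1.40-fold, and 1199 of the 11124 genes (10.8%) had a larger absolute one. Cyp51, the demethylase that acts on lanosterol next, was at 8.62 on the impaired array and 8.66 on the wildtype array (difference -0.04). The enzymes directly before and after Lss were therefore within 0.05 of 0, as were Hmgcs1 and, on the probe set used, Idi1. Lss had a single probe set, so its value could not be checked against another. Enterocyte markers differed in the same direction between these arrays, by a median of 0.90, and their part in the Lss value was not tested.

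Both regulators had a higher value on the impaired array, by less than 1.5-fold. Insig1, the sterol-responsive retention factor and itself a target of SREBP, was at 10.37 on the impaired array and 10.06 on the wildtype array. Its difference of 0.31 (1.24-fold) was exceeded by 24.8% of all genes. Srebf2 was at 10.89 on the impaired array and 10.65 on the wildtype array, a difference of 0.24 (1.18-fold) that 35.6% of all genes exceeded. Each had a single probe set. Of the 6 enzymes, 4 lay within 0.05 of 0, and the median of the 6 was -0.02. The 4 include Idi1, which was at 0.08 as the mean of its probe sets, so this count depended on the probe set.

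**Figure D1:**
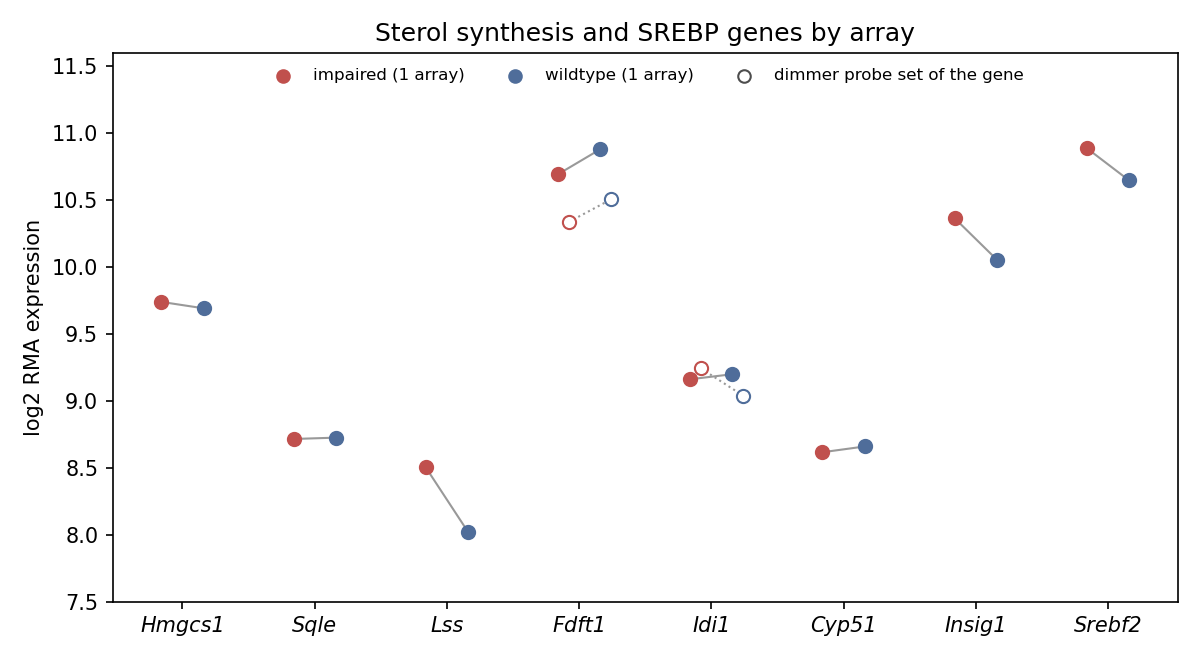
Log2 RMA expression (vertical axis) of the 8 genes on the impaired array (red) and the wildtype array (blue). Open symbols show the probe set of Fdft1 and of Idi1 with the lower mean of both arrays. That of Idi1 was the brighter one on the impaired array. Lines join the 2 arrays of 1 probe set; Lss has the steepest line, and the 2 probe sets of Idi1 slope in opposite directions. Levels of different genes come from different probes and are not compared.

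**Figure D2:**
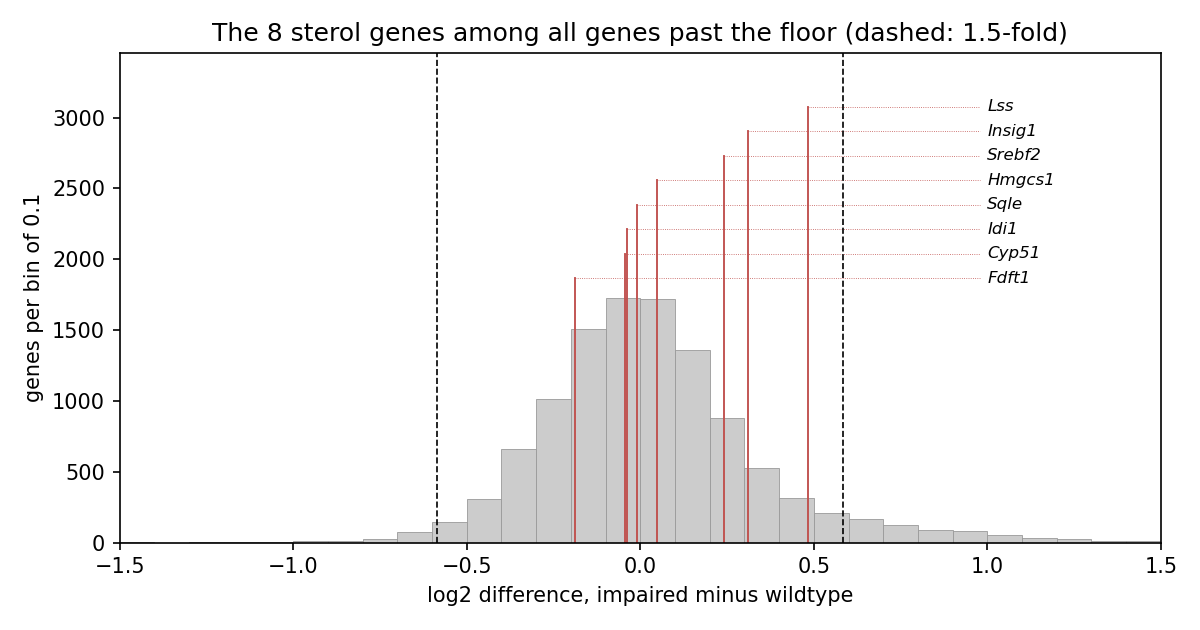
Histogram of the log2 differences (impaired minus wildtype) of the 11124 genes past the floor in bins of 0.1, with a red line at each of the 8 genes and dashed lines at 1.5-fold. All 8 lie between the dashed lines, from -0.19 for Fdft1 to 0.48 for Lss; the few genes beyond the axis limits are not drawn.

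The start regions of 3 of these genes are shown because SREBP acts through sites near the starts of its target genes, and because Hmgcs1 stayed near 0 while Insig1 and Lss had the largest differences. Promoter windows from 250 bases before to 50 after the start site came from RefSeq (GRCm38.p6), which matched 6 of the 8 genes; Sqle and Fdft1 were not matched. The letters TCACNCCAC, a form of the sterol regulatory element bound by SREBP, CCAAT, bound by NF-Y, GGGCGG, bound by SP1, and CACGTG, an E-box, were searched on both strands. Capitals mark the matches, in either orientation, and each sequence runs 5′ to 3′ on the strand of the gene. The windows are chr13:119690101-119690400 (plus strand) for Hmgcs1, chr5:28071162-28071461 (plus strand) for Insig1 and chr10:76531355-76531654 (plus strand) for Lss.
Hmgcs1: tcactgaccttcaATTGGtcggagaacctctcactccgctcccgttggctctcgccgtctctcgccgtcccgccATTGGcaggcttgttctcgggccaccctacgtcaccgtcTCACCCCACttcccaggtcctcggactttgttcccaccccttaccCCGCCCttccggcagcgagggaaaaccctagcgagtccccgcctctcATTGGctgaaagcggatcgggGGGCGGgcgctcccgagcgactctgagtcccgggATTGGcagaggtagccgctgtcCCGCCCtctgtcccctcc
Insig1: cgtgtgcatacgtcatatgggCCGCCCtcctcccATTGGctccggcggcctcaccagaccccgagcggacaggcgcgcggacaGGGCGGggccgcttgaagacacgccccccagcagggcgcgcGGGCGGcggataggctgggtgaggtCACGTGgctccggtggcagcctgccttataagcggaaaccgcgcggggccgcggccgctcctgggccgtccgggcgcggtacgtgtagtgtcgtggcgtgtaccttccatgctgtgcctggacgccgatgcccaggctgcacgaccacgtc
Lss: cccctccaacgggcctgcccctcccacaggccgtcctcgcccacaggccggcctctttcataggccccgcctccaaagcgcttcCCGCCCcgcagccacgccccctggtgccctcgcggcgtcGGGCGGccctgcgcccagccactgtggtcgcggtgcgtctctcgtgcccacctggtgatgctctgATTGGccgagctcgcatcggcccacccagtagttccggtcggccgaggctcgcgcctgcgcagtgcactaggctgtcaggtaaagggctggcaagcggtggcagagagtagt

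Among the 6 windows, 1 held TCACNCCAC, that of Hmgcs1, with its first base 137 bases before the start site, and 1.24% of all 32851 windows held it. CCAAT was in 6 of these 6 windows, against 37.4% of all windows, and GGGCGG in 6 of 6, against 35.7%. The bases G and C made up 52.3% of the Idi1 window and 64.7% to 71.7% of the others. Their median share over all windows was 52.7%, and the motif shares were not adjusted for it. CACGTG was in 1 of 6, that of Insig1 (101 bases before the start site), against 7.15% of all. The windows of Lss and Insig1 did not hold TCACNCCAC. Only this form of the sterol regulatory element was searched, so a window without it may hold another form. Whether any of these letters bear on the differences was not tested. A match describes the letters of the window and is not a measured binding site.

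The other enzymes of the pathway also differed little. Of 15 further enzymes listed, 12 had a value, and the other 3 were not analysed here. Their median difference was 0.04, with 7 above 0, 5 below and 0 at 1.5-fold. At least 1.5-fold apart were 7.39% of all genes, so 0 in a list this short says little. The highest was Mvk, mevalonate kinase, at 8.39 on the impaired and 8.07 on the wildtype array (0.32). Fdps, farnesyl diphosphate synthase, followed at 9.995 on the impaired and 9.72 on the wildtype array (0.27). Mvd, the mevalonate diphosphate decarboxylase, differed by 0.27 as well. Tm7sf2, a sterol reductase, was at 7.08 on the impaired and 6.81 on the wildtype array (0.27). The wildtype level of Tm7sf2 lay below the floor, where RMA compresses differences. Tm7sf2 passed the floor through the impaired array alone, so the filter fixed its direction. Without a floor the 12 genes gave the same 7 above 0 and 5 below. Together with the 6 enzymes above, 18 enzymes in pathway order had a median of 0.00 and ranged from -0.19 to 0.48. Of the 9 enzymes up to lanosterol 6 lay above 0 (median 0.05), and of the 9 after it 3 did (median -0.04), a split made after the values were seen.

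**Figure D3:**
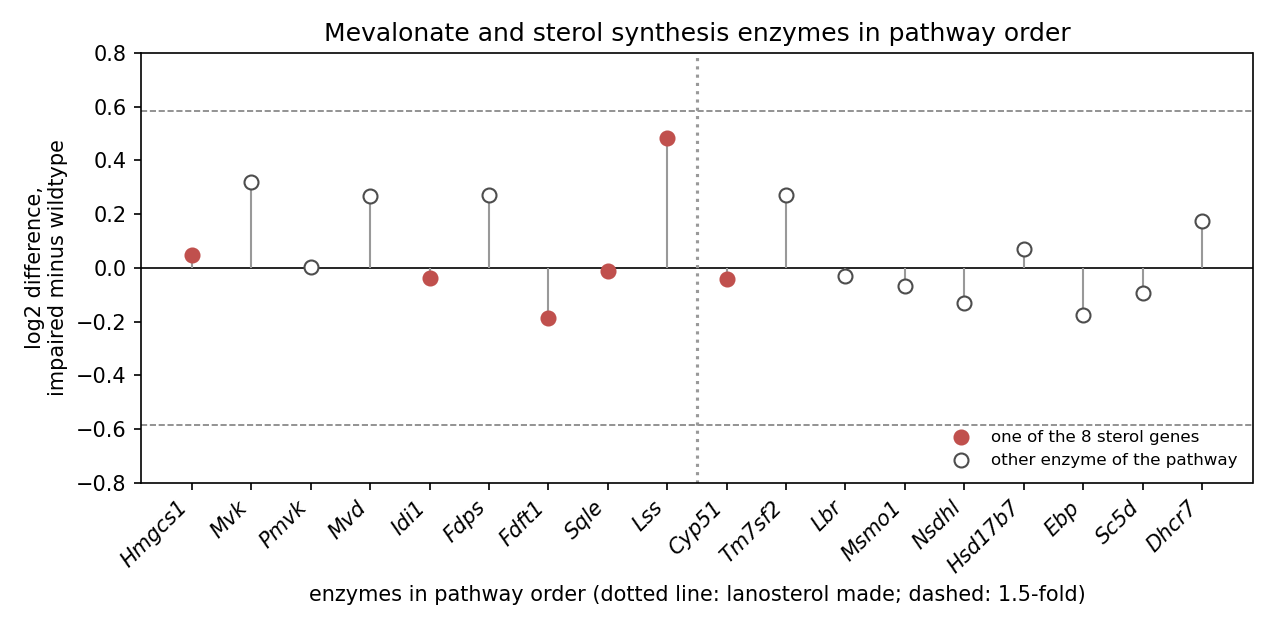
Log2 difference (impaired minus wildtype, vertical axis) of 18 enzymes in the order of the pathway, with filled symbols for the 6 enzymes among the 8 genes and open symbols for the others. A dotted line marks where lanosterol is made and dashed lines mark 1.5-fold, which no enzyme reaches; Lss is the highest at 0.48 and Fdft1 the lowest at -0.19.

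The proteins that hold, carry, cut and degrade the SREBP complex differed in both directions. Of 12 such genes besides Srebf2 and Insig1, 10 had a value, with a median of -0.06. Of these, 4 lay above 0, 6 below and 0 were at 1.5-fold (7.39% of all genes were). Insig2, the second retention factor, was at 9.30 on the impaired array and 9.70 on the wildtype array, a difference of -0.40 that lay opposite in sign to that of Insig1. The ubiquitin ligases Rnf139 and Rnf145, which act on sterol-regulated proteins of the endoplasmic reticulum, differed by -0.48 (9.24 on the impaired and 9.72 on the wildtype array) and by -0.30 (10.11 on the impaired and 10.41 on the wildtype array). Faf2, a factor that recruits the extraction machinery for degradation, differed by -0.24. Scap, the escort, was at 9.65 on the impaired and 9.48 on the wildtype array (0.17). Srebf1, whose products drive fatty acid synthesis, was at 9.10 on the impaired and 9.07 on the wildtype array (0.03).

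A few genes for sterol uptake, transport and lipid synthesis differed by more than any of the 8 sterol genes, while most of their list did not. Of 25 other sterol-regulated targets 22 had a value past the floor, with a median of 0.11. Of these, 16 lay above 0 and 6 below, 4 were at least 1.5-fold brighter on the impaired array (5.89% of all genes were) and 2 at least 2-fold brighter (1.46% of all). Fads2, a fatty acid desaturase, was at 9.67 on the impaired array and 8.56 on the wildtype array (difference 1.105, 2.15-fold). Npc1l1, the cholesterol importer of the intestinal brush border, was at 9.51 on the impaired array and 8.45 on the wildtype array (1.065, 2.09-fold). Tmem97, a sterol-responsive membrane protein, differed by 0.68, and by 0.60 on its second probe set, and Acss2, an acetyl-CoA synthetase, by 0.675. Enterocyte genes differed by a median of 0.90 in the same direction, and the highest of the 8 sterol genes, Lss, by 0.48.

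Among cholesterol export genes, the largest differences were those of a pair of intestinal transporters. Of 11 genes of the liver X receptor and export list, 8 had a value past the floor, with a median of 0.22. Of these, 7 lay above 0 and 1 below, 2 were at least 1.5-fold brighter on the impaired array (5.89% of all genes were) and 1 at least 2-fold (1.46% of all). Those 2, Abcg5 and Abcg8, passed the floor through the impaired array alone, so the filter fixed their direction and the counts support nothing about the list. Abcg5 was at 8.02 on the impaired array and 6.85 on the wildtype array (1.165), and its partner Abcg8, with which it forms the pump that returns sterols to the gut lumen, was at 7.19 on the impaired and 6.43 on the wildtype array (0.76). The sizes of both differences are uncertain for the same reason. Apoe, a lipid carrier, differed by 0.255, and Lpcat3, a phospholipid-remodelling enzyme, by 0.23.

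Branches that leave or use the pathway showed small values. In the isoprenoid branch, which makes lipid anchors, dolichol and ubiquinone from the intermediates that Idi1 supplies, 11 of 12 genes had a value. Of these 9 lay below 0 and 2 above, with a median of -0.17, and 0 were 1.5-fold apart. Of all genes 49.5% lay below 0 and 7.39% were at least 1.5-fold apart. Ggps1, geranylgeranyl diphosphate synthase, was at 8.92 on the impaired array and 9.38 on the wildtype array (-0.455). Nus1, a dolichol synthase subunit, differed by -0.24, Rabggtb by -0.22 and Fnta by -0.19, the last 2 being subunits of prenyltransferases. Among genes for sterol esters, oxysterols and their sensing, 7 of 14 had a value past the floor, with a median of -0.04. Of these, 3 lay above 0, 4 below and 0 were at 1.5-fold (7.39% of all genes were). Gpr183, the receptor by which lymphocytes follow oxysterol gradients, was at 9.70 on the impaired and 9.39 on the wildtype array (0.315). Osbpl8, a lipid transfer protein, differed by -0.28, Sult2b1, a sterol sulfotransferase, by 0.15 and Lipa, the lysosomal acid lipase, by -0.145. Ch25h, which makes 25-hydroxycholesterol, was below the floor on both arrays, at 5.53 on the impaired and 5.30 on the wildtype array.

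Markers of other intestinal cells differed between the same 2 arrays, beside all of these values. All 16 enterocyte genes were brighter on the impaired array, with a median of 0.90, led by Sis (1.77) and Alpi (1.22), and their summed linear signal was 38354 on the impaired array and 21421 on the wildtype array. All 10 goblet and Paneth cell genes with a value were brighter too (median 0.92, sums of 35692 on the impaired array and 17913 on the wildtype array), with Ang4 and Lyz1 at 1.705 and 1.70. Of the 12 neutrophil genes 10 were brighter and 2 dimmer (median 1.485, sums of 4356 on the impaired array and 1402 on the wildtype array), with Mmp8 at 2.35 and S100a8 at 2.265. The 2 dimmer ones, chosen after their values were seen, were Mpo (-0.08) and Elane (-0.04), both below the floor on both arrays. The 9 macrophage genes with a value had a median of 0.21, with Lyz2 at 1.78 and C1qa at 0.18, and sums of 2365 on the impaired array and 1802 on the wildtype array. The 7 B cell genes with a value had a median of 0.34, with Blnk at 0.99 and Cd79b at 0.60, and sums of 1303 on the impaired array and 867 on the wildtype array. Of 10 pancreatic acinar genes with a value 9 were dimmer on the impaired array (median -1.58, sums of 4183 on the impaired array and 11312 on the wildtype array), with Ctrb1 at -2.33 and Try5 at -2.26. These medians and sums take in genes below the floor. On both arrays, 4 of the 12 neutrophil, 6 of the 9 macrophage and 5 of the 7 B cell genes lay below the floor. The wildtype levels of Ang4, Itln1, Mmp8, Ltf, Cxcr2 and C1qa lay below it while their impaired levels did not, and for Try10 it was the impaired level, which leaves the size of each difference uncertain. RMA values have no 0, so no marker was at 0 on either array.

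Enterocytes are known to make sterols and to carry Npc1l1, Abcg5 and Abcg8 on their brush border. The 8 genes had a summed linear signal of 7479 on the impaired array and 7060 on the wildtype array, a ratio of 1.06, where the enterocyte genes had a ratio of 1.79. The part of these cells in the values of Insig1, Srebf2 and the transporters was not tested either, and in a bulk sample fewer cells of a type and less RNA per cell cannot be told apart.

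T cell and TR1 markers were present on both arrays, and all 24 with a value passed the floor. The 12 general T cell genes with a value had a median of -0.01 and ranged from -0.23 (Cd6) to 0.24 (Thy1). The 12 TR1 genes had a median of -0.03. Of them 1, Entpd1, an ectonucleotidase, was at least 1.5-fold brighter on the impaired array (0.61), as were 5.89% of all genes. Ahr, the aryl hydrocarbon receptor, differed by 0.24, as Thy1 and Srebf2 did. Il10 was at 12.92 on the impaired and 12.94 on the wildtype array. Il10ra, the receptor chain the transgene concerns, was at 12.30 on the impaired and 9.92 on the wildtype array, and the sources do not show whether its probe set also reads the transgene.

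**Figure D4:**
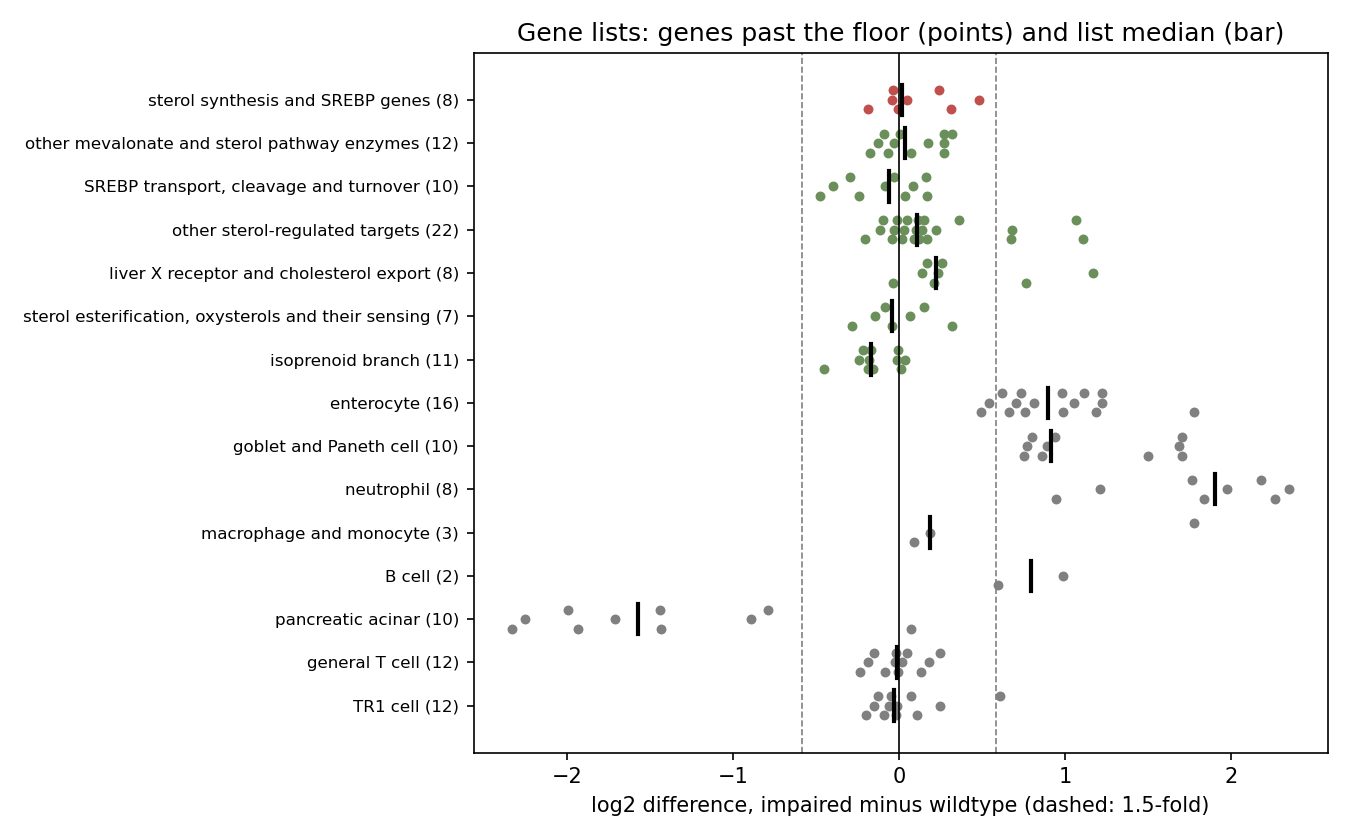
Log2 difference (impaired minus wildtype, horizontal axis) of each gene past the floor (points, spread vertically only to separate them) in the 8 sterol genes (red), the 6 pathway lists (green) and the 8 cell type lists (grey), with a black bar at each list's median, the number of genes in brackets and dashed lines at 1.5-fold. The sterol genes centre at 0.02, the T cell and TR1 lists at -0.01 and -0.03, and the enterocyte list at 0.90. All genes past the floor centre at 0.00.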

How the data were processed

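Per the submitters' processing notes, the authors made the log2 values with affy and RMA, a method that subtracts background, equalises the arrays' distributions and summarises probes into probe sets. Versions and genome build: not given in the sources used here. Log2 values were deposited for 34760 probe sets, of which 21640 carried 1 gene symbol in GEO's platform annotation (1321 had several and 11799 were not listed with a symbol). A gene took the probe set with the highest mean of both arrays, which gave 19937 genes. A floor of 6.91, the median probe set's mean, had to be reached by the brighter array and left 11124 genes.

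Differences are impaired minus wildtype. With 1 array per genotype there is no replicate error and no test, so genes were counted by size (1.5-fold and 2-fold). Precision is limited by the number of arrays. The 8 genes and the 14 gene lists beside them were chosen with earlier results of these data known. Genes named beside the 8 were up to 4 with the largest absolute difference past the floor from each of 6 pathway lists, 2 from each of 8 cell type lists, and Scap, Srebf1, Insig2, Ch25h, Il10ra and Il10. A few others are marked where named. Alternatives were loess and median centring, an offset of 32 added before taking log2, averaged probe sets, and other floors. The differencing and centring steps were run on simulated data with planted differences. A limit on the recovered size was checked for the plain differences only. The work used statsmodels 0.14.6 and pandas 2.3.3 under Python 3.11.15.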

Additional observations from a re-analysis of the deposited data

How the results depend on the processing

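No paired analysis was possible because each genotype has 1 array, and leaving out a replicate was not possible for the same reason. Under loess centring, median centring, the linear offset of 32 and averaged probe sets, 0 of the 8 genes came to 1.5-fold or 2-fold. Across these 32 values the largest shift of a gene was 0.12. The bar set for a move was 0.25, the scaled median absolute deviation of the differences of all genes, and no gene reached it. For all of the 8 but Lss and Insig1 the bar was larger than the difference itself. The sign of such a gene could change without counting as a move. That bar is a spread across genes and does not measure the missing spread between replicates. Averaging probe sets could not move the 6 genes with 1 probe set, and median centring moved every gene by the same amount. Lss ranged from 0.44 to 0.495, Insig1 from 0.30 to 0.37 and Srebf2 from 0.24 to 0.30, all above 0 in each setting, and Fdft1 stayed below 0 in each. Signs near 0 changed 4 times: Idi1 was 0.01 after loess centring and 0.08 as the mean of its probe sets, and Sqle was 0.03 after loess centring and 0.003 after median centring. The median of the 8 ranged from 0.02 to 0.07. The medians of the 6 pathway lists moved by at most 0.15, and 4 of their 36 values changed sign. The other enzymes had -0.08 with the floor at the 75th percentile, the oxysterol list 0.11 without a floor and 0.00 after loess centring, and the SREBP transport list 0.00 after loess centring. Without detection calls or scanner files, the authors' background correction and normalization could not be varied.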
